A study of Arabidopsis thaliana with 9 samples.

Results

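The membrane of the endoplasmic reticulum (ER) holds signal peptide peptidase (SPP), a protease of the aspartic type. It cuts signal peptides within the membrane after signal peptidase has released them from newly made secretory proteins. In Arabidopsis it is encoded by AtSPP, and its loss is known to harm pollen. The question here was which genes differed from the Col-0 strain in the same way in plants with more AtSPP and in plants with less. Both kinds of plant carried a transgene, which Col-0 did not. The 6 arrays of the transgenic seedlings were therefore taken as 1 group and set against the 3 Col-0 arrays. Genes were read from the 13513 probe sets that the platform annotation pairs with 1 gene, of 22746 probe sets on the array after 64 control probe sets were left out. They stand for 13286 gene codes of the Arabidopsis genome.

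The transgenic group held 3 arrays of AtSPP-overexpressed lines and 3 arrays of AtSPP knockdown lines. The AtSPP-overexpressed lines carried the full-length AtSPP between the CaMV 35S promoter, which is active in most plant tissues, and the Nos terminator. The AtSPP knockdown lines carried an RNA interference (RNAi) construct that places a piece of AtSPP in sense and antisense orientation. The piece was 600 bp long in knockdown replicate 1 and 400 bp long in replicates 2 and 3. The labels speak of 3 lines of each kind and do not state array by array which line was read. All lines were homozygous plants in the Col-0 background, and the Col-0 samples carried no construct. Whole seedlings were grown for 7 days on reduced-strength Murashige-Skoog medium with 0.8% agar. Total RNA of 20 pooled plants was hybridised to 1 Affymetrix ATH1 array per sample. Nothing states that the 3 Col-0 samples came from separate sowings. On the Col-0 side the p-values then measure no more than the spread between pools of plants, part of which may be technical. In the pooled transgenic group the spread also holds any difference between lines and between the 2 kinds of line. Carrying a transgene and any difference between plant pools in growth or harvest cannot be told apart here. In whole seedlings, fewer cells of a type and less RNA per cell cannot be told apart either.

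The deposited values were normalized by the distribution free weighted (DFW) method and were taken as log2 values. DFW draws arrays together where they differ little, and the SD over the 9 arrays had a median of 5.38e-06 DFW units. A difference is therefore no fold change. Differences are given here in thousandths of a DFW unit, as the mean of the 6 transgenic arrays minus the mean of the 3 Col-0 arrays, and the value of an array is given as its deviation from the Col-0 mean. A level is a DFW value as deposited. The number of arrays limits the precision. Array medians lay between 6.30286 and 6.30291 on the knockdown arrays, between 6.30234 and 6.30259 on the AtSPP-overexpressed arrays and at 6.30234 on each Col-0 array. The mean of the medians was 0.355 thousandths higher in the transgenic arrays.

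AtSPP, the gene that the constructs target, moved in opposite directions in the 2 kinds of line. It lay at 214, 253 and 183 thousandths in the AtSPP-overexpressed arrays and at -50.9, -37.1 and -55.6 in the knockdown arrays. The Col-0 arrays lay at -12.5, 5.55 and 6.96 thousandths. The 3 groups did not overlap, while the pooled transgenic arrays lay on both sides of Col-0. The pooled difference was 84.4 thousandths with a standard error of 84.5, which did not pass (limma adjusted p = 0.697). An exact two-sided permutation test of 6 against 3 arrays gave p = 0.476, and the smallest p this design allows is 0.0238. The AtSPP-overexpressed arrays exceeded the knockdown arrays by 265 thousandths (limma adjusted p = 0.00183). Whether the probe set reads the transgene beside the gene itself was not tested.

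The pooled comparison called 98 of the 13513 probe sets, 63 with a higher and 35 with a lower value in the transgenic arrays (limma, adjusted p under 0.05, adjusted over all 22746 probe sets). That is 0.466% higher and 0.259% lower, against 0.576% higher and 0.387% lower over all probe sets, so genes with a name in the annotation were not called more often than the rest. Another 121 called probe sets are unlisted or paired with several genes and stay unnamed. In each of the 98 the 6 transgenic arrays lay on 1 side of the 3 Col-0 arrays. Without regard to the test, 658 probe sets (4.87%) had all transgenic arrays above Col-0 and 532 (3.94%) had all below, against 5.35% above and 4.65% below over all probe sets. Most of the genes whose groups did not overlap were thus not called.

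The calls rested on few Col-0 arrays. Without Col-0 replicate 1, limma called 0 probe sets, with 1427 at an unadjusted p under 0.05. Without Col-0 replicate 2, 1 lower probe set was called, that of AT4G09500, and 1565 had an unadjusted p under 0.05. Without Col-0 replicate 3, 15 of the 98 calls were kept. Leaving out a transgenic array kept between 17 calls, without knockdown replicate 3, and 92 calls, without AtSPP-overexpressed replicate 1. In each of these 9 fits the 98 differences kept their sign, as they must where the groups do not overlap. Each also had an unadjusted p under 0.05, but the 98 were chosen by their p from these same arrays. The 3 AtSPP-overexpressed arrays alone against Col-0 gave 0 calls with limma (1335 at an unadjusted p under 0.05), and the 3 knockdown arrays alone gave 611 higher and 689 lower. With the AtSPP-overexpressed arrays alone AtSPP itself did not pass either, at 217 thousandths (limma adjusted p = 0.106). The 0 calls therefore do not show that nothing differed in these lines.

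**Figure D1:**
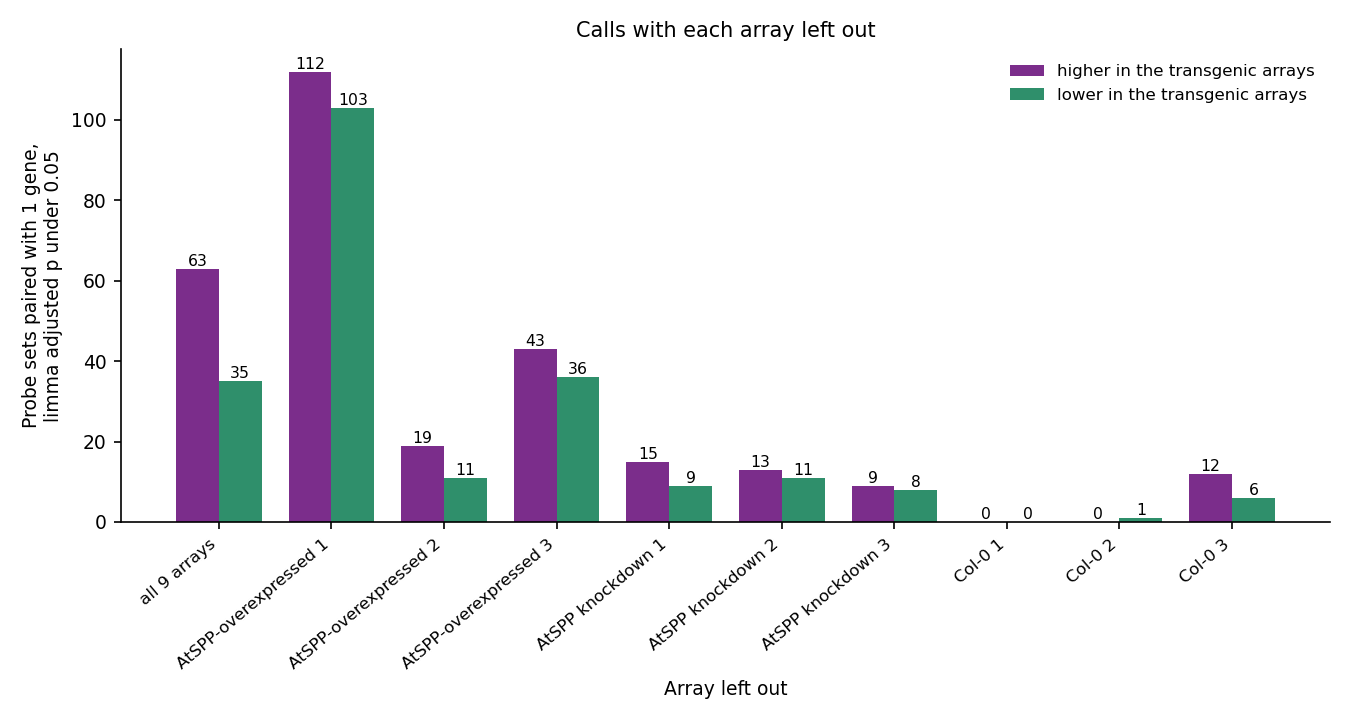
Number of probe sets paired with 1 gene at a limma adjusted p under 0.05 (vertical axis) with all 9 arrays and with each array left out (horizontal axis), for probe sets higher (purple) and lower (green) in the transgenic arrays. With all arrays 63 were higher and 35 lower, and the counts were 0 and 0 without Col-0 replicate 1.

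The differences were small. Of the 98 called probe sets, 27 higher and 5 lower ones differed by more than 1 thousandth, and 2 higher and 2 lower ones by more than 10. The median size was 0.293 thousandths for the called probe sets and 0.00309 thousandths for all probe sets. Of the 98, 85 lay above the median level of the 13513 probe sets, and their median level was 6.74 against 6.15 for all 13513. The size of 51 calls, 25 of them higher, was below the shift of 0.355 thousandths between the array medians. Subtracting each array's median lowers every pooled difference by this shift, so these 25 increases turn negative then by construction, and the counts became 144 higher and 12599 lower. A shift of each array by its median difference from the mean array, chosen after seeing the data, gave 63 higher and 36 lower, kept 97 of the 98 calls and turned no sign. Quantile normalization gave 936 higher and 853 lower, kept 44 of the 98 calls and turned the sign of 21.

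**Figure D2:**
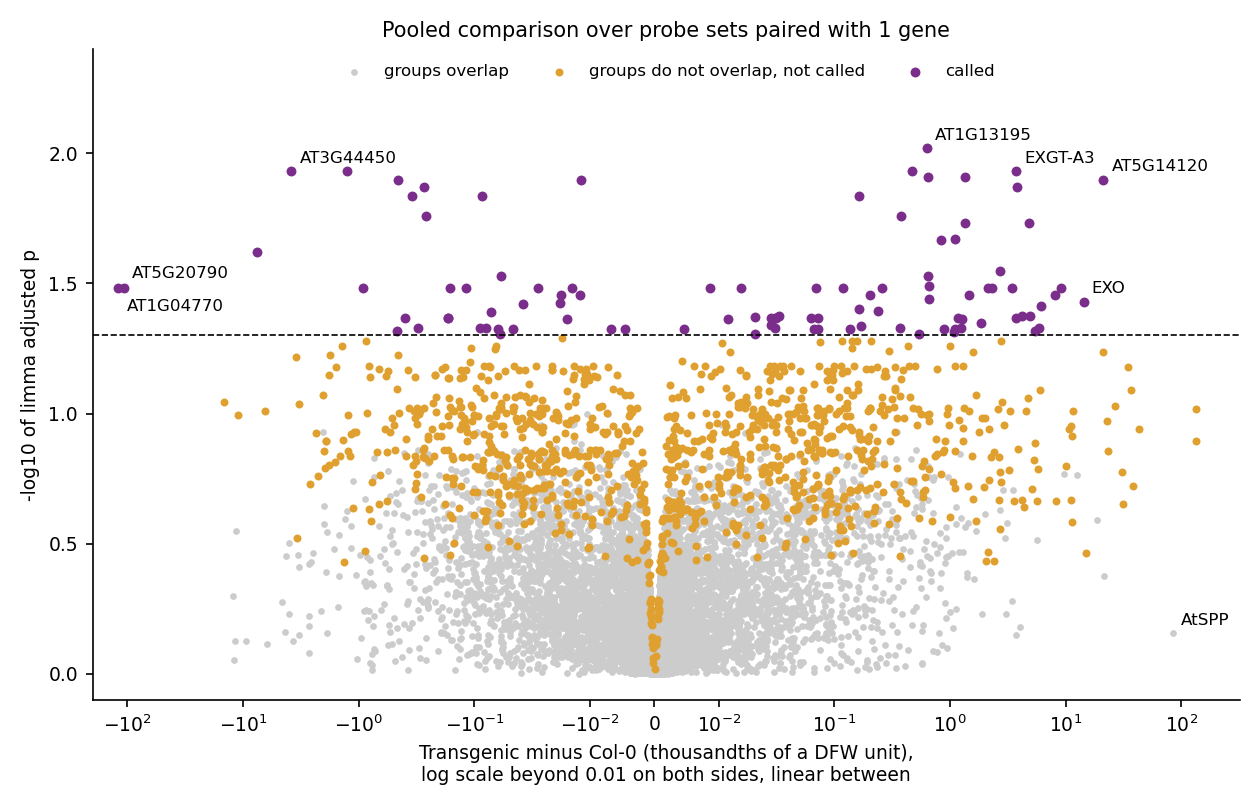
Transgenic minus Col-0 difference in thousandths of a DFW unit (horizontal axis, log scale beyond 0.01 on both sides) against -log10 of the limma adjusted p (vertical axis) for 13513 probe sets paired with 1 gene. Purple points are the 98 called, orange points had groups that did not overlap but were not called, grey points had groups that overlapped, and the dashed line marks an adjusted p of 0.05. AtSPP lies far right and low.

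Among called genes, the 2 largest decreases stood far from the others. AT1G04770, from the drawn-up list of sulfur deficiency genes, fell by 119.6 thousandths (standard error 16.4, limma adjusted p = 0.0329), the 7th largest difference on the array. Its DFW level was 6.67, 6.62 and 6.64 in the AtSPP-overexpressed arrays and 6.62, 6.61 and 6.60 in the knockdown arrays, against 6.72, 6.76 and 6.76 in the Col-0 arrays. The groups did not overlap, and AtSPP-overexpressed replicate 1 and Col-0 replicate 1 lay closest together. AT5G20790, from the list of phosphate starvation genes, fell by 107 thousandths (standard error 14.8, limma adjusted p = 0.0329), the 10th largest difference. Its level was 5.74, 5.73 and 5.76 in the AtSPP-overexpressed arrays and 5.73, 5.71 and 5.69 in the knockdown arrays, against 5.82, 5.85 and 5.83 in the Col-0 arrays. Of the 23 genes in its list, AT5G20790 alone had a probe set paired with 1 gene. The naming rule asked for groups that did not overlap, so a fall in both kinds of line was required. In the AtSPP-overexpressed and the knockdown arrays the differences were -104 and -135 thousandths for AT1G04770 and -90.1 and -125 for AT5G20790. Neither gene differed between the kinds past the threshold (limma adjusted p = 0.384 and 0.19). With the AtSPP-overexpressed arrays alone against Col-0 neither gene passed (limma adjusted p = 0.195 and 0.136). With the knockdown arrays alone both passed (limma adjusted p = 0.0108 and 0.0083). With 1 array left out, the adjusted p of AT1G04770 was 0.0177 to 0.146 and that of AT5G20790 was 0.0232 to 0.146, highest without Col-0 replicate 2 for both.

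The next decreases among called genes were more than 10 times smaller. AT3G09440, from the list of cytosolic heat shock genes, fell by 7.64 thousandths (standard error 0.897, limma adjusted p = 0.0239). Its arrays lay at -5.72, -7.17 and -7.79 thousandths with AtSPP-overexpression and at -8.38, -7.96 and -8.83 with knockdown, against 1.80, -0.0852 and -1.71 in Col-0. AT3G44450 fell by 3.85 thousandths (adjusted p = 0.0117) and AT5G01790 fell by 1.26 (adjusted p = 0.0117). The transgenic arrays of AT3G44450 lay between -4.19 and -3.53 thousandths, and its Col-0 arrays lay between -0.906 and 0.580. SAT32, a gene named for salt tolerance, fell by 0.914 thousandths (adjusted p = 0.0329). The other 6 of the 12 largest decreases, AT5G14700, AT1G21590, AT1G20070, AT5G20740, AT4G29610 and AT4G19110, fell by 0.274 to 0.466 thousandths. None of these genes kept its call without Col-0 replicate 1. After quantile normalization AT5G20740 turned to 0.0807 thousandths, and SAT32 (adjusted p = 0.0556) and AT1G20070 (adjusted p = 0.17) no longer passed.

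The largest increase among called genes was that of AT5G14120, by 21.2 thousandths (standard error 2.06, limma adjusted p = 0.0126). Its arrays lay at 17.63, 22.9 and 19.5 thousandths in the AtSPP-overexpressed group and at 23.1, 22.2 and 21.5 in the knockdown group, against -4.47, -0.0843 and 4.55 in Col-0. The spread of the transgenic arrays was smaller than their distance to Col-0, and both kinds of line lay at a like height. Genes were named for a pooled call and groups that did not overlap, and this choice favours both traits. EXO (EXORDIUM), which encodes an extracellular protein of cell expansion that responds to brassinosteroids, rose by 14.3 thousandths (standard error 2.06, adjusted p = 0.0371). The EXO arrays lay at 16.1, 11.5 and 12.2 thousandths in the AtSPP-overexpressed group and at 19.97, 13.5 and 12.5 in the knockdown group, against -1.41, 2.87 and -1.47 in Col-0. Replicate 1 was the highest array of each transgenic kind for this gene. Without Col-0 replicate 1 neither gene passed, and the adjusted p of EXO was then 0.161.

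**Figure D3:**
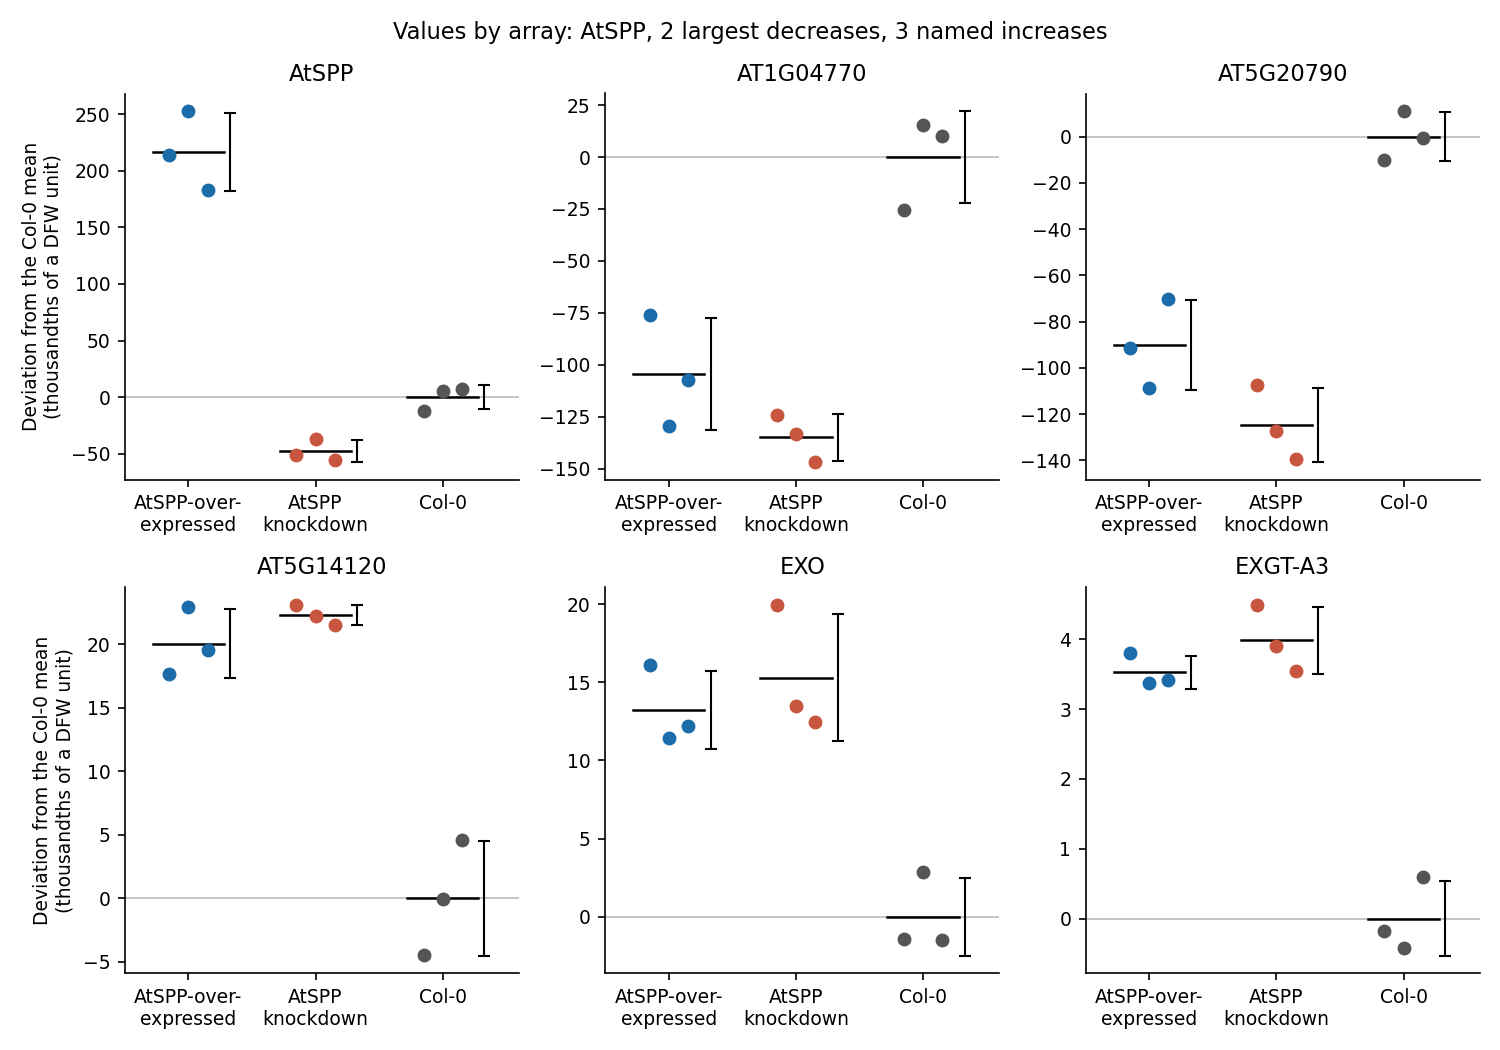
Deviation of each array from the Col-0 mean in thousandths of a DFW unit (vertical axes, which differ between panels) for AtSPP, AT1G04770, AT5G20790, AT5G14120, EXO and EXGT-A3. Points are arrays in replicate order, horizontal lines are means and bars are the SD of 3 arrays. In all panels but that of AtSPP both transgenic kinds lie on the same side of Col-0, as the rule for naming these genes required.

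Of the called genes, 13 have a symbol in the gene tables and can be described by what they are known for. They are ordered here by role, an order set after their values were seen and not tested, and 10 of the 13 rose. EXGT-A3, THE1 and CSLA03 have known roles in the cell wall, as does AT1G08280 (GALT29A), described further on, which fell. EXGT-A3 encodes a xyloglucan endotransglucosylase, which joins and cuts xyloglucan chains of the wall, and rose by 3.76 thousandths (standard error 0.310, limma adjusted p = 0.0117). Its transgenic arrays lay between 3.37 and 4.50 thousandths and its Col-0 arrays between -0.422 and 0.597. THE1 encodes THESEUS1, a receptor-like kinase that senses the state of the wall, and rose by 3.42 thousandths (adjusted p = 0.0329). The THE1 arrays lay at 3.28, 3.298 and 2.82 thousandths with AtSPP-overexpression and at 4.78, 2.68 and 3.64 with knockdown, against -0.212, 0.324 and -0.111 in Col-0. CSLA03, a cellulose synthase-like gene of the family that makes mannans, rose by 0.883 thousandths (adjusted p = 0.0474). These groups did not overlap. Without Col-0 replicate 1 the adjusted p was 0.0757 for EXGT-A3, 0.146 for THE1 and 0.197 for CSLA03.

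bHLH121, GT2 and BZIP61 encode transcription factors. bHLH121, a basic helix-loop-helix factor of iron homeostasis, rose by 3.71 thousandths (standard error 0.578, limma adjusted p = 0.0429). Its arrays lay at 2.46, 3.42 and 2.80 thousandths in the AtSPP-overexpressed group and at 4.24, 4.54 and 4.81 in the knockdown group, against -0.319, -0.185 and 0.504 in Col-0, so the 2 kinds of line did not overlap either. GT2, a trihelix factor, rose by 1.87 thousandths (adjusted p = 0.0447) and BZIP61, a basic leucine zipper factor, by 1.35 (adjusted p = 0.0123). AT5G61590, listed also as DEWAX, an ethylene response factor that represses wax synthesis, rose by 5.90 thousandths (adjusted p = 0.0469). Its transgenic arrays lay between 3.14 and 7.59 thousandths, and its Col-0 arrays spanned only -0.167 to 0.183. No gene of this paragraph passed without Col-0 replicate 1, and the adjusted p of DEWAX was then 0.183.

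The remaining genes with a symbol included enzymes and proteins of transport or turnover. SCPL34, a serine carboxypeptidase-like gene, rose by 8.11 thousandths (standard error 1.15, limma adjusted p = 0.0350), with transgenic arrays between 5.07 and 10.1 and Col-0 arrays between -0.547 and 0.904. Known as a glutamine amidotransferase gene, GAT1_2.1 rose by 3.82 thousandths (standard error 0.381, adjusted p = 0.0135). A dimmer probe set of GAT1_2.1 differed by 0.0017 thousandths (adjusted p = 0.237), and its groups overlapped. SNF7.2, a subunit of the ESCRT-III complex that sorts membrane proteins for degradation, rose by 0.0309 thousandths (adjusted p = 0.0428) and was at -0.325 with the array medians centred. UBP23, a ubiquitin-specific protease, fell by 0.0624 thousandths (adjusted p = 0.0473). RBL (REBELOTE), known for flower meristems, fell by 0.164 thousandths (adjusted p = 0.0329). Quantile normalization ended the calls of SNF7.2, UBP23 and RBL (adjusted p = 0.651, 0.93 and 0.084). Without Col-0 replicate 1 none of these 5 passed.

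The other genes of the 12 largest increases are known here by code alone. AT1G61100 rose by 9.08 thousandths, AT5G25240 by 6.11, AT4G19530 by 5.42, AT4G01330 by 4.92, AT5G44680 by 4.82 and AT1G56220 by 4.19 (limma adjusted p from 0.0186 to 0.0483). Among those with the lowest p not yet named, AT1G13195 had the lowest p of the probe sets paired with 1 gene. It rose by 0.632 thousandths (standard error 0.0458, limma adjusted p = 0.00952). Its arrays lay at 0.624, 0.685 and 0.505 thousandths with AtSPP-overexpression and at 0.672, 0.687 and 0.615 with knockdown, against -0.0723, 0.0384 and 0.0340 in Col-0. AT4G19860, AT1G10020 and AT2G42030 rose by 0.380 to 0.640 thousandths and AT3G26890 by 0.162, and with the array medians centred AT3G26890 was at -0.193. Among the decreases with the lowest p, the differences were -0.0121 thousandths for AT4G09500, -0.0863 for AT3G03790, -0.265 for AT2G36970, -0.0587 for AT1G08280, a glycosyltransferase gene listed as GALT29A, and -0.118 for AT5G39850. After quantile normalization AT3G03790 turned to 0.261 thousandths and AT1G08280 to 0.0404, and AT1G56220, AT2G42030, AT3G26890 and AT2G36970 no longer passed (adjusted p = 0.0749, 0.0586, 0.59 and 0.347). Leaving out Col-0 replicate 1 ended each of these calls, and leaving out replicate 2 ended all but that of AT4G09500.

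Most called genes lay farther from Col-0 in the knockdown lines, as did a like share of all probe sets whose groups did not overlap. This was so for 77 of the 98 (78.6%), of which 48 were higher and 29 lower, and for 79.4% of the 1190 probe sets whose groups did not overlap. The transgenic array closest to Col-0 was AtSPP-overexpressed replicate 1 in 39 of the 98 (39.8%, against 36.9% of the 1190) and replicate 3 of that kind in 28 (28.6% against 26.8%). The array farthest from Col-0 was knockdown replicate 3 in 38 genes (38.8% against 36.6%) and knockdown replicate 1 in 28 (28.6% against 24.6%). Tested directly, 3 of the 98 (3.06%) differed between the 2 kinds of line, against 4.33% of all probe sets (limma adjusted p under 0.05). They were bHLH121, at -1.64 thousandths as AtSPP-overexpressed minus knockdown (adjusted p = 0.0439), AT3G23080, at -0.608 (adjusted p = 0.0102), and AT2G36970, at 0.0821 (adjusted p = 0.0357). AT3G23080 was named after its values were seen. It lay 0.966 thousandths above Col-0 with AtSPP-overexpression and 1.57 above with knockdown. For the other called genes a difference between the kinds was not shown, which does not show that the kinds were alike. A difference between the kinds adds to the spread in the pooled comparison, so the calls lean towards genes in which they were close. A fit with 3 groups sets the mean of both kinds against Col-0, and a difference between the kinds adds no spread there. It called 446 higher and 382 lower, all 98 among them. A pass in this fit does not show a change shared by both kinds, as 1 kind can carry the mean. AtSPP passed in it with its 2 kinds on either side of Col-0 (limma adjusted p = 0.0221).

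**Figure D4:**
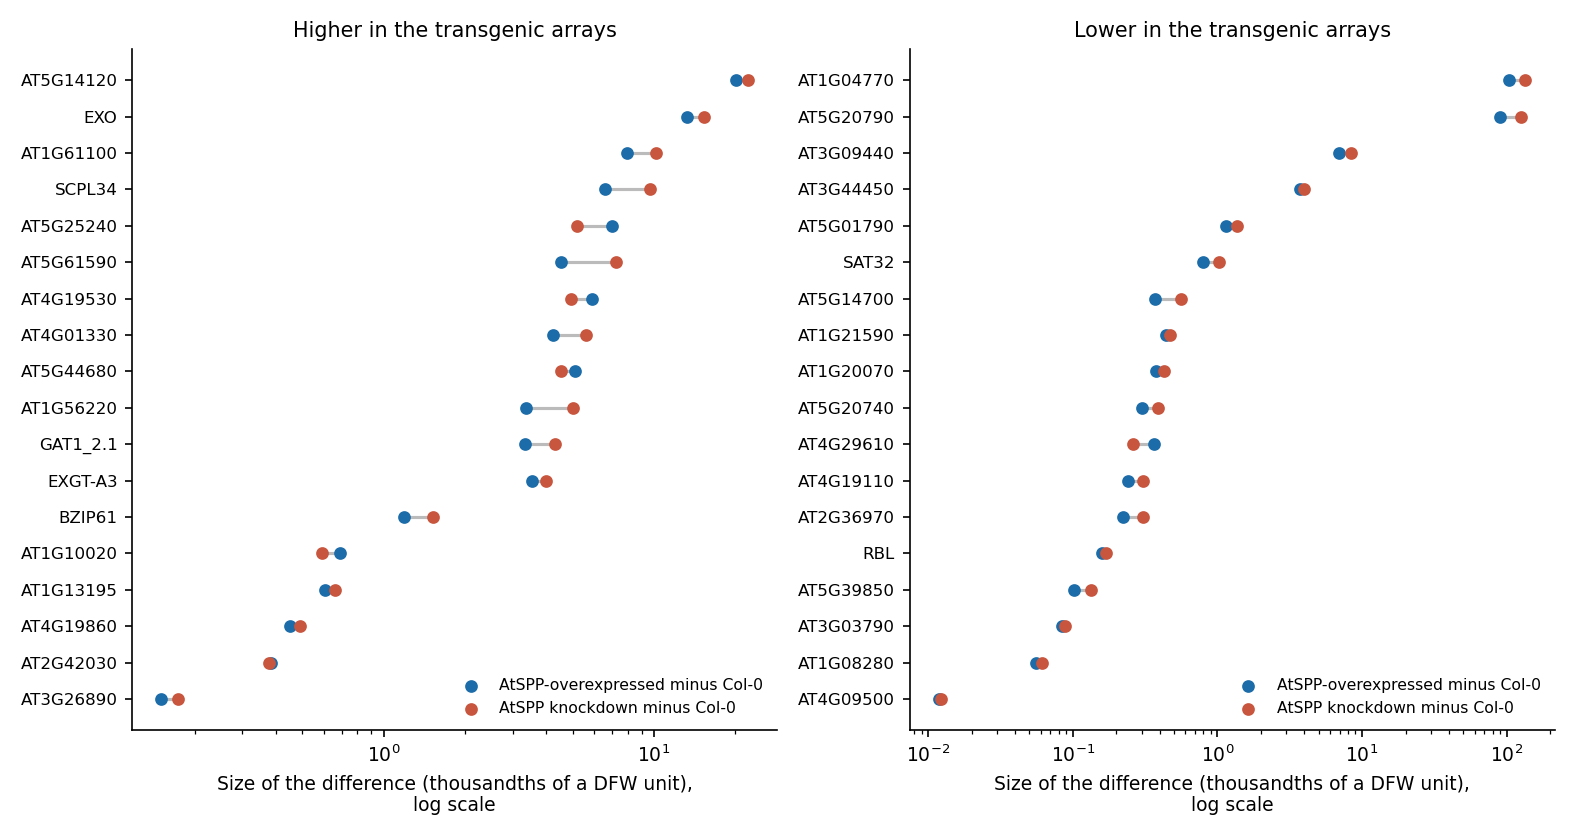
Size of the difference from Col-0 in thousandths of a DFW unit (horizontal axes, log scale) in the AtSPP-overexpressed arrays (blue) and the knockdown arrays (red), each the mean of 3 arrays, for the 18 named increases (left) and 18 named decreases (right). The Col-0 arrays are the same 3 for blue and red. For AT1G04770 the sizes are 104 and 135 thousandths.

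To see which known functions the calls touched, 27 lists of 566 genes were read. They covered secretion and ER quality control, nutrient and stress responses, cell wall loosening, hormones and organ markers. Of these genes, 101 were measured, in 24 lists, where measured means having a probe set paired with 1 gene in the annotation. Other listed genes may be read by the 8730 unlisted probe sets or the 503 paired with several genes. Limma called 5 of them, 2 higher (GAT1_2.1 and EXGT-A3) and 3 lower (AT1G04770, AT5G20790 and AT3G09440), where 0.725% of the 13513 probe sets were called. With the called ones, 11 of the 101 lay above and 15 below Col-0 in all transgenic arrays, where the shares over the 13513 probe sets were 4.87% and 3.94%. These shares also stand behind the counts of separated genes, those whose groups did not overlap, in each list that follows. No list had more than 1 call. Members and lists were chosen with earlier results of these data known. The counts therefore do not test whether listed genes differed more often than the rest. Since few genes of each list were measured, the counts describe those genes and not the pathways.

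**Figure D5:**
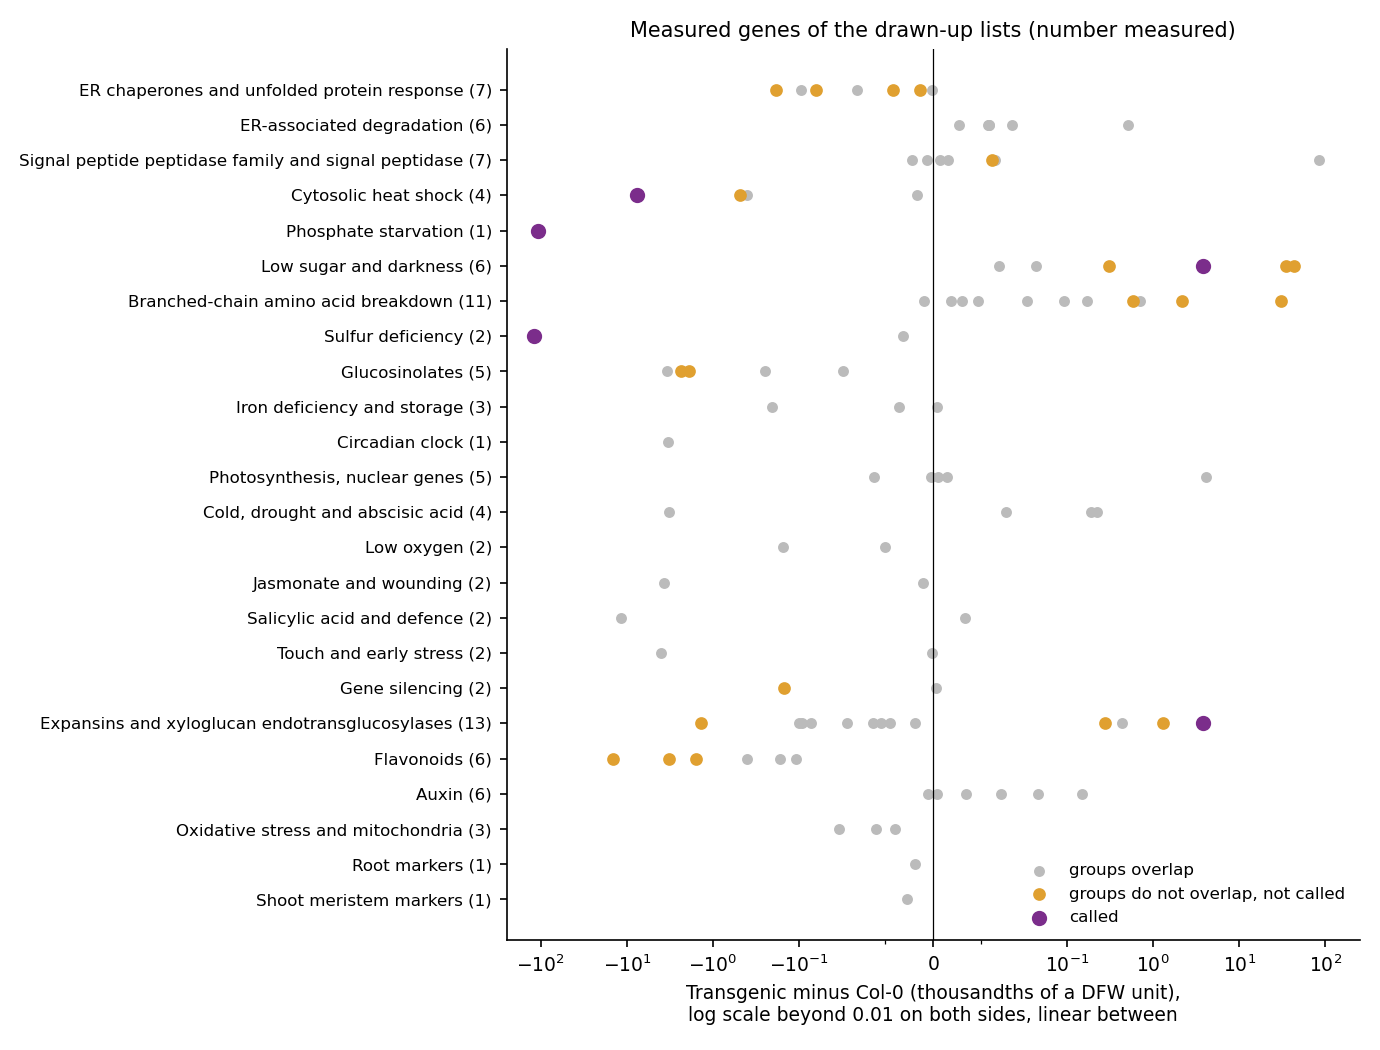
Transgenic minus Col-0 difference in thousandths of a DFW unit (horizontal axis, log scale beyond 0.01 on both sides) of each measured gene, by list, with the number of measured genes in brackets. Purple points are called genes, orange points had groups that did not overlap and were not called, and grey points had groups that overlapped. The 5 purple points are AT3G09440, AT5G20790, GAT1_2.1, AT1G04770 and EXGT-A3.

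ER genes, the ones closest to the site of SPP, held no call in the pooled comparison, where 0.725% of the 13513 probe sets were called. ER chaperones help secretory proteins fold, and the unfolded protein response raises them when folding fails. All 7 measured genes of this list had negative differences, 6 of them after quantile normalization, and 4 lay below Col-0 in every transgenic array, with a list median of -0.0213 thousandths against -8.23e-05 over all probe sets. The largest of these was CRT1b, which encodes a calreticulin, at -0.185 thousandths (limma adjusted p = 0.138). ATERDJ3B, an ER co-chaperone, was at -0.0637 (adjusted p = 0.143), AT5G07340 at -0.00842 (adjusted p = 0.138) and BZIP17, a membrane-bound stress factor, at -0.0027 (adjusted p = 0.18). These differences were below the shift between array medians, and AT5G07340 turned to 0.189 after quantile normalization. CRT1b passed then, at -1.07 thousandths (adjusted p = 0.000805), and ATERDJ3B passed with 3 groups in the fit (adjusted p = 0.038). The 6 measured genes of ER-associated degradation, which removes misfolded proteins, all had positive differences with a median of 0.0123 thousandths, but quantile normalization left 3 of them negative and centring on array medians 5. None of the 6 was separated, and the lowest adjusted p was that of DER2.2, a Derlin family gene, at 0.162. Of 7 genes of the SPP and signal peptidase list, AT2G39960 alone was separated, at 0.0134 thousandths (adjusted p = 0.2). It turned to -0.542 after quantile normalization and to -0.342 after centring, and DER2.2 turned to -0.333 after centring.

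Low sugar and darkness induce genes that recycle cell material, and all 6 measured genes of that list had positive differences, 4 after quantile normalization and 3 after centring on array medians. Besides the called GAT1_2.1, 3 were separated. AKINBETA1, a subunit of the SnRK1 energy-sensing kinase, differed by 34.7 thousandths (limma adjusted p = 0.0662). Its arrays lay at 20.1, 33.3 and 26.3 thousandths with AtSPP-overexpression and at 36.9, 40.7 and 51.0 with knockdown, against -5.46, -1.42 and 6.88 in Col-0. ATG8E, an autophagy gene, differed by 43.2 thousandths (adjusted p = 0.114) and lay at 27.7, 36.0 and 20.3 with AtSPP-overexpression and at 56.8, 58.1 and 60.4 with knockdown, against -13.9, 2.39 and 11.5 in Col-0. The 3 groups of ATG8E arrays did not overlap. AT4G33150 differed by 0.303 thousandths (adjusted p = 0.127), and by -0.0529 with the array medians centred. None of these 3 passed the pooled comparison. After quantile normalization AKINBETA1 and ATG8E passed (adjusted p = 0.0154 and 0.0438), and with 3 groups in the fit all 3 did (adjusted p = 0.00994 for AKINBETA1, 0.0111 for ATG8E and 0.0078 for AT4G33150).

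In the list of branched-chain amino acid breakdown, 10 of 11 measured genes had positive differences, 6 after quantile normalization and 4 after centring. The list median was 0.0931 thousandths. MCCA and MCCB encode the subunits of methylcrotonyl-CoA carboxylase, an enzyme of leucine breakdown, and IVD encodes isovaleryl-CoA dehydrogenase, which acts before it. All 3 were above Col-0 in every transgenic array. MCCA lay at 11.2, 20.4 and 16.8 thousandths with AtSPP-overexpression and at 44.3, 42.8 and 47.3 with knockdown, against -5.71, 0.749 and 4.96 in Col-0. Its pooled difference of 30.5 thousandths did not pass (limma adjusted p = 0.168), and neither did that of MCCB, 0.587 (adjusted p = 0.2), or IVD, 2.13 (adjusted p = 0.339). Each of the 3 differed between the kinds of line (adjusted p = 0.0102, 0.0082 and 0.00859), with the knockdown arrays higher. With 3 groups in the fit each passed (adjusted p = 0.00451 for MCCA, 0.00462 for MCCB and 0.0109 for IVD), while after quantile normalization MCCB turned to -0.542. In that fit 1 kind of line can carry the mean. IVD lay 0.600 thousandths above Col-0 with AtSPP-overexpression and 3.66 above with knockdown.

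Of the flavonoid list, whose genes make and glycosylate pigments and sunscreens, all 6 measured had negative differences, under each scaling too, and 3 were separated. AT1G06000 differed by -14.5 thousandths (limma adjusted p = 0.0905), UGT78D1, a flavonol glycosyltransferase, by -3.27 (adjusted p = 0.0914) and UGT78D2, another flavonoid glycosyltransferase, by -1.59 (adjusted p = 0.154). AT1G06000 lay at -7.03, -12.7 and -9.61 thousandths with AtSPP-overexpression and at -19.3, -18.1 and -20.2 with knockdown, against 1.56, 0.273 and -1.84 in Col-0. The 3 groups of AT1G06000 arrays did not overlap, and the knockdown arrays lay lowest. All 3 genes passed after quantile normalization (adjusted p = 0.0269 for AT1G06000, 0.0321 for UGT78D1 and 0.0397 for UGT78D2) and with 3 groups in the fit (adjusted p = 0.00442, 0.00505 and 0.0413). Of the 5 measured glucosinolate genes, which make sulfur-rich defence compounds, all had negative differences, 4 after quantile normalization, and 2 were separated. They were AT2G31790 at -2.34 thousandths (adjusted p = 0.119) and UGT74B1, a glucosyltransferase of the glucosinolate core, at -1.92 (adjusted p = 0.127), and both passed with 3 groups in the fit (adjusted p = 0.0124 and 0.0416). With 1 array left out, the adjusted p was 0.0466 to 0.276 for AT1G06000, 0.0329 to 0.319 for UGT74B1 and 0.0482 to 0.301 for AT2G31790.

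Genes of wall loosening went in both directions. Of 13 measured genes of expansins and xyloglucan endotransglucosylases, 4 had positive and 9 negative differences, against 5 and 8 after quantile normalization and 3 and 10 after centring. Besides the called EXGT-A3, its family members XTH16, at 1.3 thousandths (limma adjusted p = 0.128), and XTH33, at 0.275 (adjusted p = 0.0687), were separated above Col-0. With the array medians centred XTH33 was at -0.0806. EXPA8, an expansin, was separated below at -1.39 thousandths (adjusted p = 0.0552). Its arrays lay at -0.795, -1.22 and -1.24 thousandths with AtSPP-overexpression and at -1.57, -1.63 and -1.88 with knockdown, against 0.0703, 0.263 and -0.333 in Col-0. EXPA8 thus lay just outside the threshold, and its adjusted p was 0.0323 to 0.206 with 1 array left out. EXPA8 and XTH16 passed after quantile normalization (adjusted p = 0.0137 and 0.0154), and EXPA8, XTH16 and XTH33 with 3 groups in the fit (adjusted p = 0.00788, 0.027 and 0.0201). In the list of cytosolic heat shock all 4 measured genes had negative differences, 3 after quantile normalization, with Hsp70-2 separated at -0.485 thousandths (adjusted p = 0.138) beside the called AT3G09440. Of the gene silencing list, AGO7, an Argonaute, was separated below at -0.149 thousandths (adjusted p = 0.176). Hsp70-2 and AGO7 passed with 3 groups in the fit (adjusted p = 0.0224 and 0.0163).

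In some genes only 1 kind of line stood far from Col-0, or the kinds lay on either side of it. GI, which encodes the clock protein GIGANTEA, lay at -5.55, -6.90 and -5.57 thousandths in the AtSPP-overexpressed arrays and at -0.696, -1.03 and -0.182 in the knockdown arrays, against -0.0126, 0.311 and -0.298 in Col-0. It differed between the kinds (limma adjusted p = 0.00297), and the pooled difference of -3.32 thousandths did not pass (adjusted p = 0.388). LHCB4.2, a light-harvesting protein of photosystem II, lay at -1.78, -3.14 and -0.176 thousandths in the AtSPP-overexpressed arrays and at 9.08, 9.58 and 10.8 in the knockdown arrays, against -0.0354, 0.332 and -0.296 in Col-0. Its pooled difference of 4.06 thousandths did not pass (adjusted p = 0.659). LHCB4.2 also differed between the kinds (adjusted p = 0.00214). With 3 groups in the fit both pooled differences passed (adjusted p = 0.00627 for GI and 0.0199 for LHCB4.2).

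Markers of organs and of RNA quality were read beside these results. Of photosynthesis genes 5 of 33 were measured, of root markers EXPA7 and of shoot meristem markers CLV3. None of the listed seed or flower markers had a probe set paired with 1 gene. None of these was called. The mean level of the 5 photosynthesis genes was 11.363 to 11.366 in the transgenic arrays and 11.363 in the Col-0 arrays. EXPA7 differed by -0.0038 thousandths (limma adjusted p = 0.947) and CLV3 by -0.00541 (adjusted p = 0.834). The difference between 3' and 5' control probe sets, a sign of RNA integrity, overlapped between the transgenic and Col-0 arrays for actin, GAPDH and ubiquitin (exact two-sided permutation p = 1, 0.881 and 1). The called genes were spread over the 5 nuclear chromosomes, with 0.455% to 0.864% of the probe sets called on each, and none of 69 plastid probe sets was called.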

How the data were processed

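Per the labels and the methods, the authors hybridised RNA of 7-day seedlings to Affymetrix ATH1 arrays and normalized the signals with the DFW algorithm in R. The deposited values were taken as log2 values, 1 per probe set and array, and used as deposited. The sources used here do not give their log base or background correction. Genes came from the platform annotation, with symbols updated through RefSeq (TAIR10.1, names alone), which matched 13436 of 13513 probe sets. Of several probe sets of a gene, lists used the brightest.

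The main fit was limma 3.58.1 in R 4.3.3 (lmFit and eBayes) with 2 groups of 6 and 3 arrays and 7 residual degrees of freedom. The 2 kinds of line were compared in a fit of 3 groups. Tests were two-sided, with Benjamini-Hochberg adjustment over 22746 probe sets and a threshold of 0.05. The fit was tested on simulated data. Groups came from the sample labels. The sample titles number the replicates without stating whether the numbers pair samples, and the main fit took them as unpaired.

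Named genes were AtSPP, the 12 largest increases and 12 largest decreases among called probe sets whose groups did not overlap, the 6 increases and 6 decreases of lowest p not yet named, and every called list member. Called genes with a symbol were added. Members and lists were chosen with earlier results of these data known. Alternatives were other normalizations, filters, fits and left-out arrays. Scanner files were not used here.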

Additional observations from a re-analysis of the deposited data

Results flagged for a closer look

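Some named genes differed between the AtSPP-overexpressed and the knockdown arrays (limma adjusted p under 0.05 in the fit of 3 groups, 3 arrays each). Of the targeted and called genes, AtSPP differed by 264.6 thousandths, bHLH121 by -1.639, AT3G23080 by -0.6081 and AT2G36970 by 0.0821, each AtSPP-overexpressed minus knockdown. Of the list genes that were not called, LHCB4.2 differed by -11.52 thousandths, MCCA by -28.63, IVD by -3.063, MCCB by -0.6103, GI by -5.367 and AT4G33150 by -0.2353. AT1G06000 differed by 9.422 thousandths, UGT78D1 by 2.104 and AGO7 by 0.1331. In 1 gene a transgenic array stood apart from the other 5: AT4G09500 was at -0.01024 thousandths in AtSPP-overexpressed replicate 1, the highest of the 6. A rule of this kind flags about 1 in 20 groups by chance.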

How the results depend on the processing

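Where a difference below changes with a setting and no construction of that setting shows why, the cause was not tested. All values are for probe sets paired with 1 gene, and differences are in thousandths of a DFW unit. In the pooled comparison 63 were higher and 35 lower, 5 list genes were called and 3 called probe sets differed between the kinds of line. With 3 groups in the fit and both kinds averaged, the counts were 446, 382, 30 and 253, all 98 calls were kept, and AtSPP passed at 84.42 (adjusted p = 0.0221). Quantile normalization gave 936, 853, 22 and 189 and kept 44 calls. Centring on the array medians gave 144, 12599, 81 and 12640. It lowers every pooled difference by 0.355, against a median size of 0.00309. Centring also shifts every difference between the kinds of line, which enters the 12640. The array medians were 6.30234 to 6.30259 with AtSPP-overexpression and 6.30286 to 6.30291 with knockdown. Array weights gave 191, 145, 10 and 31. Leaving out the dimmer probe sets gave 102 higher, 54 lower and 8 that differed between the kinds, and adjusting over probe sets paired with 1 gene alone gave 33, 21 and 1. An intensity trend gave 68 higher and 35 lower, robust eBayes 59 and 34, and a shift of each array by its median difference from the mean array, chosen after seeing the data, 63 and 36.

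The AtSPP-overexpressed arrays alone gave 0 higher, 0 lower and 0 list genes, and LHCB4.2 was then at -1.70. AtSPP itself did not pass in that fit, at 217 (limma adjusted p = 0.106). The knockdown arrays alone gave 611, 689 and 38, and AtSPP was then at -47.9 (adjusted p = 0.0303). With 1 array left out, 0 to 112 were higher, 0 to 103 lower, 0 to 11 list genes called and 0 to 1 called probe sets differed between the kinds. AtSPP did not pass in any of these 9 fits (50.7 to 112, adjusted p from 0.622 to 0.852). EXPA7 ranged from -0.0155 to 0.00549 and CLV3 from -0.0122 to 0.00141.

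With the replicate number as a block the counts were 0 higher, 1 lower (AT1G08610), 0 list genes and 0 that differed between the kinds, with 1776 at an unadjusted p under 0.05. This replicate block rests on shared numbers, and the sample titles do not state whether these pair arrays. Same-numbered arrays of different groups had deviations that correlated from -0.444 to 0.732 over 9 pairs. The correlations were 0.521 to 0.732 in the 3 pairs of replicate 1 arrays and -0.444 to 0.322 in the others. Of the 9 arrays, 3 correlated best with their own number. Whether the replicate 1 arrays share a cause was not tested.

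After quantile normalization AT5G20740 was at 0.0807, AT3G03790 at 0.261, AT1G08280 at 0.0404, MCCB at -0.542, AT5G07340 at 0.189 and AT2G39960 at -0.542. After centring, AT3G26890 was at -0.193, SNF7.2 at -0.325, AT2G39960 at -0.342, DER2.2 at -0.333, AT4G33150 at -0.0529 and XTH33 at -0.0806. Signal over background is unknown, so dim probe sets could not be told from undetected ones.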
